A study of Mus musculus with 2 samples.

Results

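GATA4 occupied sites (OS) at the 8 genes of the mouse Smad family were examined in adult mouse liver. The data came from chromatin immunoprecipitation followed by sequencing (ChIP-seq), in which an antibody enriches the DNA bound by a protein and the enriched fragments are sequenced. Whole livers of C57BL/6 x Sv129 mice aged 2 to 3 months by the sample labels were used. The study's methods give a slightly older age range. The ChIP sample had the C-20 antibody against GATA4, the input DNA sample had no antibody, and no treatment is given for either. By the study's methods the ChIP was made on a pair of biological replicates, each pooled from the livers of a pair of mice. The deposited lists cover both replicates together, so no value per replicate and no test between groups could be given. An OS was assigned to a Smad gene where its midpoint lay in the gene body or within 50 kb of it, and the OS were selected on these measured positions. By this rule 11 of the 4409 common OS, those called by both SPP and MACS2 (programs that search aligned reads for local enrichment over the input), belonged to the family.

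Smad proteins carry signals of the TGF-beta and bone morphogenetic protein (BMP) ligands from their receptors to the nucleus. Smad1, Smad5 and Smad9 (the last also called Smad8) are phosphorylated by BMP receptors and Smad2 and Smad3 by TGF-beta and activin receptors. Smad4 is the partner that both groups share, and Smad6 and Smad7 are inhibitors that dampen the receptors or the active Smads and are themselves induced by the pathway. In the liver, BMP6 from sinusoidal endothelial cells signals through Smad1, Smad5 and Smad4 in hepatocytes to induce hepcidin, the hormone of iron balance. GATA4 is a zinc finger transcription factor that recognises WGATAR, in which W is A or T and R is A or G.

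The OS lay mostly at Smad6. Its body and flanks held 8 common OS, of which 3 were inside the gene and 5 stood upstream of its transcription start site (TSS) in a stretch of 21.9 kb. Their sequences are shown for the 5 upstream OS, which make up the cluster, and for the OS of intron 3 that holds a repeated motif. Each OS is named by its number in the common list, and capitals mark matches to WGATAR on either strand, which read as YTATCW (Y is C or T) where the motif lies on the minus strand.
Smad6 OS 561, upstream, mm9 chr9:63893046-63893274, plus strand: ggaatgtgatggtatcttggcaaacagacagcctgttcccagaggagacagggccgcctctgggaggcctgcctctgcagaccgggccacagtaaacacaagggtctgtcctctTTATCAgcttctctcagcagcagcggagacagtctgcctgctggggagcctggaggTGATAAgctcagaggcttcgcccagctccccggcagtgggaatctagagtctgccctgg
Smad6 OS 1953, upstream, mm9 chr9:63898491-63898618, plus strand: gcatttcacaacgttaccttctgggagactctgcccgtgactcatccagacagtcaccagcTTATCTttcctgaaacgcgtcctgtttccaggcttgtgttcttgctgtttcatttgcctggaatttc
Smad6 OS 2128, upstream, mm9 chr9:63903011-63903184, plus strand: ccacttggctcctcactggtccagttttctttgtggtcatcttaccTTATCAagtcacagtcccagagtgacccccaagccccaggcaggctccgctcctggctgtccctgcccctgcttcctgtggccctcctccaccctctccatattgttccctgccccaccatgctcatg
Smad6 OS 314, upstream, mm9 chr9:63908073-63908364, plus strand: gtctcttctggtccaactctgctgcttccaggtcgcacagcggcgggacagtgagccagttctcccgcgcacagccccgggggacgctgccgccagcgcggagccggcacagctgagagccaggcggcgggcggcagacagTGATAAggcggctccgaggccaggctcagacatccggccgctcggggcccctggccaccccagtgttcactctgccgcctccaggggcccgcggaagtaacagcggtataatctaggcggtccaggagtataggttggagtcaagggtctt
Smad6 OS 1169, upstream, mm9 chr9:63914710-63914952, plus strand: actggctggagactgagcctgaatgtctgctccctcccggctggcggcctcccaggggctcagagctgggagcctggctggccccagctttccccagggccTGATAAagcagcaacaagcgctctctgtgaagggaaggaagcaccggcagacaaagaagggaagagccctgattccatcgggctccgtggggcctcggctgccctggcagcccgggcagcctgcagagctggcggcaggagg
Smad6 OS 2783, intron 3, mm9 chr9:63827175-63827329, plus strand: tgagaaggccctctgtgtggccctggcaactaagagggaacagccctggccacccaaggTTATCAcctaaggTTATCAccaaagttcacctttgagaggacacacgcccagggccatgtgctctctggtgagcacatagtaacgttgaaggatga

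Each of these 6 sequences held at least 1 WGATAR. Numbers 561 and 2783 held 2 matches and the other 4 held 1. In OS 2783 both matches lay on the minus strand with 7 bases between them, and the 12 bases aaggTTATCAcc occurred there as a direct repeat with a shift of 13 bp. In OS 561 the matches faced opposite ways with 50 bases between them.

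Smad6 (ENSMUSG00000036867.5) lies on the minus strand of chromosome 9 from 63800953 to 63869866 (mm9), a body of 68914 bp with 4 exons in its longest protein-coding transcript, Smad6-001. OS 1947 lay in intron 1 at 63865842 to 63866001, with its midpoint 3.94 kb downstream of the TSS. OS 2783 lay in intron 3 at 63827175 to 63827329, with its midpoint 42.6 kb downstream of the TSS. OS 3703 lay in the same intron at 63818348 to 63818437, with its midpoint 51.5 kb downstream of the TSS. No OS assigned to a Smad gene touched an exon of any gene.

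The upstream OS began 23.3 kb before the TSS with OS 561 and ended 45 kb before it with OS 1169. Between them stood OS 1953 at 28.7 kb, OS 2128 at 33.2 kb and OS 314 at 38.4 kb. Neighbouring midpoints in this stretch were 4.54 to 6.61 kb apart. The gap from OS 561 to OS 1947 in intron 1 was 27.2 kb, and the gap from OS 1947 to OS 2783 was 38.7 kb. All 5 upstream OS had at least 4 other common OS within 25 kb, a density that 57 of all 4409 common OS (1.29%) reached, whereas 2887 (65.5%) had none within that distance. The rule favours such groups at a single gene, so this share is given as a description.

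**Figure D1:**
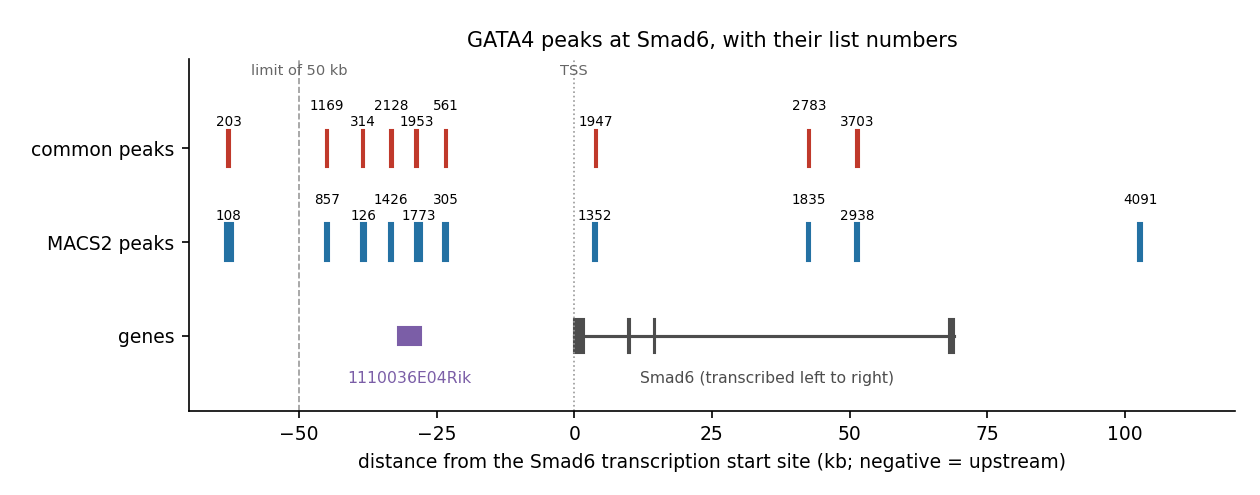
Map of the Smad6 locus. The x axis is the distance from the Smad6 TSS in kb along the direction of transcription, red and blue bars are common and MACS2 peaks with their list numbers, grey boxes are the exons of Smad6-001 and the purple box is 1110036E04Rik. Narrow features are drawn at a minimum width to be visible. A group of 5 common peaks stands between 23.3 and 45 kb upstream, and number 203 lies beyond the limit of 50 kb.

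GENCODE placed no other protein-coding gene so that these OS fell in its body or within 50 kb of it, and the nearest protein-coding TSS of all 8 was that of Smad6. A long non-coding RNA gene, 1110036E04Rik (63897636 to 63901907, plus strand), lay within the upstream stretch. OS 1953 was inside it, 0.918 kb downstream of its TSS and outside its exons, and OS 2128 lay 1.19 kb beyond its end. In whole liver, a site held strongly in few cells cannot be told apart from one held weakly in many.

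The next common OS beyond the limit, number 203, lay 62.8 kb upstream of the Smad6 TSS at 63932536 to 63932819. The farthest OS within the limit, number 1169 at 63914710 to 63914952, was 45 kb upstream. Number 203 came earlier in the common list than any of the 8 counted OS, and its nearest protein-coding TSS was that of Lctl, a lactase-like gene, at 32.3 kb. It was not counted for Smad6.

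The files give no read counts and no peak heights, since the score of every peak is 1000. The list number was therefore the only order available. The common list keeps the order of the SPP list, and for the reproducibility step the study's methods ranked SPP peaks on their signal and MACS2 peaks on their p-value. The files do not say what the numbers follow. At Smad6 the numbers ran from 314 to 3703 of 4409 with a median of 1950. The 5 upstream OS had the numbers 314, 561, 1169, 1953 and 2128, all in the first 2204 of the list, and the 3 OS inside the gene had the numbers 1947, 2783 and 3703. Each of the 8 lay wholly inside a MACS2 peak, as did 96.6% of all common OS. These MACS2 peaks had the numbers 126, 305, 857, 1426 and 1773 upstream and 1352, 1835 and 2938 inside the gene, of 5867. OS 314 and OS 561 came first among the 8 in both lists, and OS 3703 came last in both. The MACS2 list held 1 further peak in the reach of Smad6, number 4091, 33.9 kb beyond the end of the gene, with no SPP peak over it.

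**Figure D2:**
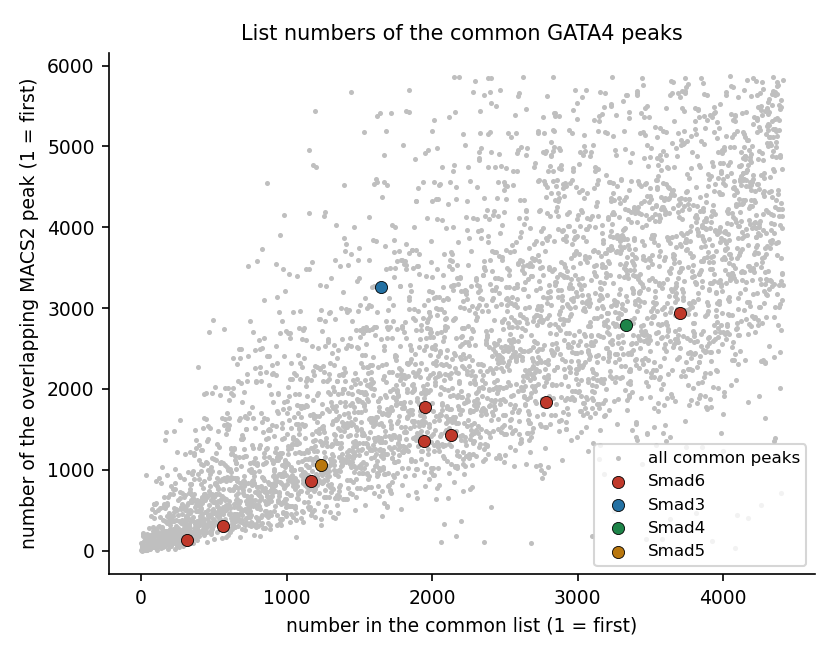
List numbers of the common peaks. The x axis is the number in the common list and the y axis the number of the overlapping MACS2 peak, each counted from 1 at the head of the list. Grey points are all 4409 common peaks and coloured points the 11 at Smad genes, where 2 Smad6 peaks (numbers 314 and 561) lie in the first 1102 of the common list and the Smad3 peak stands far later in the MACS2 list (3263) than in the common list (1651).

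The remaining 3 common OS of the family lay singly at Smad3, Smad5 and Smad4. Smad3, which carries TGF-beta and activin signals, lies on chromosome 9 from 63494574 to 63605801, on the minus strand, and 195.2 kb separate its body from that of Smad6. No common OS lay between their bodies. Its OS, number 1651 (63564697 to 63564825), was in intron 1 of the longest transcript, Smad3-001, 41.0 kb downstream of that TSS and 4985 bp from the TSS of a shorter protein-coding Smad3 transcript. It overlapped MACS2 peak 3263. A MACS2 peak without an SPP peak, number 3789, lay 27.6 kb upstream of the Smad3 TSS.

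Smad5, a carrier of BMP signals, lies on chromosome 13 from 56804371 to 56843738, on the plus strand. Its OS, number 1236 (56857423 to 56857575), lay 13761 bp beyond the end of the gene and in no other gene, and it overlapped MACS2 peak 1060. A MACS2 peak of 1737 bp, number 5036, covered the Smad5 TSS itself but had no SPP peak over it and was absent from the common list. The next common OS outside the limit was 89.4 kb upstream of Smad5, with the TSS of Tgfbi, a matrix protein gene, nearest to it.

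Smad4, the common partner, lies on chromosome 18 from 73798663 to 73863434, on the minus strand. Its OS, number 3329 (73906311 to 73906452), was 42.9 kb upstream of the Smad4 TSS. The midpoint lay inside Elac1, a tRNA-processing enzyme gene, whose TSS was 7752 bp away and thus nearer than that of Smad4. It held 3 WGATAR matches, and MACS2 peak 2794 overlapped it. Under assignment to the nearest TSS this OS left the family.

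The other 4 members had no common OS. Smad7, the second inhibitory Smad, had only a MACS2 peak, number 5742 of 5867, 36.5 kb upstream of its TSS, and the nearest common OS, number 1103, was 59.9 kb upstream and so outside the limit. The inhibitory Smads thus differed in the counts, with 8 common OS at Smad6 and 0 at Smad7. Smad1, Smad2 and Smad9 had no peak of any of the 3 lists within 50 kb. Their nearest common OS stood 1553.1, 436.2 and 261.8 kb from the gene body, respectively. A gene without a listed peak may still be held by GATA4 below the thresholds of the callers, which cannot be seen in the files.

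**Figure D3:**
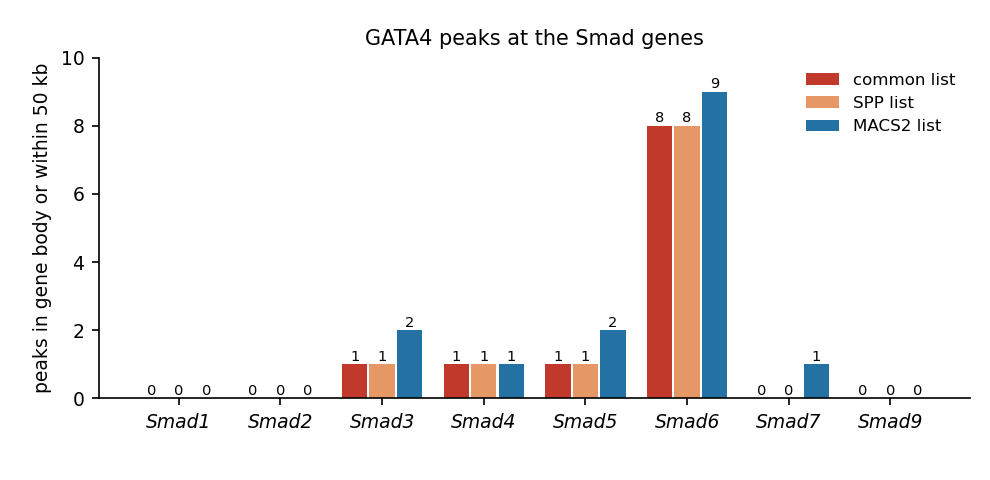
Peaks at each Smad gene. Bars give the number of peaks of the common, SPP and MACS2 lists whose midpoint lies in the gene body or within 50 kb. Smad6 has 8, 8 and 9 peaks, Smad3, Smad4 and Smad5 have 1 or 2 in each list, and Smad1, Smad2 and Smad9 have none.

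At least 1 common OS lay at 4 of the 8 Smad genes. Among 22367 protein-coding genes, 27.7% had at least 1 by the same rule, and the median gene had 0. With the MACS2 list, 5 of the 8 Smad genes had a peak, against 33.9% of protein-coding genes. Within the family, Smad6 held 8 of the 11 common OS. Only 8 protein-coding genes, Smad6 included, had 8 or more common OS, which is 0.0358% of them. Since the members were chosen with this count in view, nothing was read from that share.

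The genes with a count like that of Smad6 were longer. Ptprr, a receptor-type tyrosine phosphatase gene, also had 8 common OS, but over a body of 256.7 kb. Bach2, a transcriptional repressor gene of 347.3 kb, and Dlc1, a GTPase-activating protein gene of 384.7 kb, had 9 each. Fgfr2, a fibroblast growth factor receptor gene, had 9 over a body annotated at 3009.1 kb, and Arhgap26, another GTPase-activating protein gene, had 10 over 774.8 kb. Smad6 had the shortest body of the 8 genes, and its 4.74 common OS per 100 kb of body and flanks compared with 2.24 at Ptprr, 2.01 at Bach2 and 1.86 at Dlc1. By density, 29 protein-coding genes (0.13%) were at or above Smad6. By the gene body alone, where Smad6 had 3 common OS, 134 genes (0.599%) had as many.

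**Figure D4:**
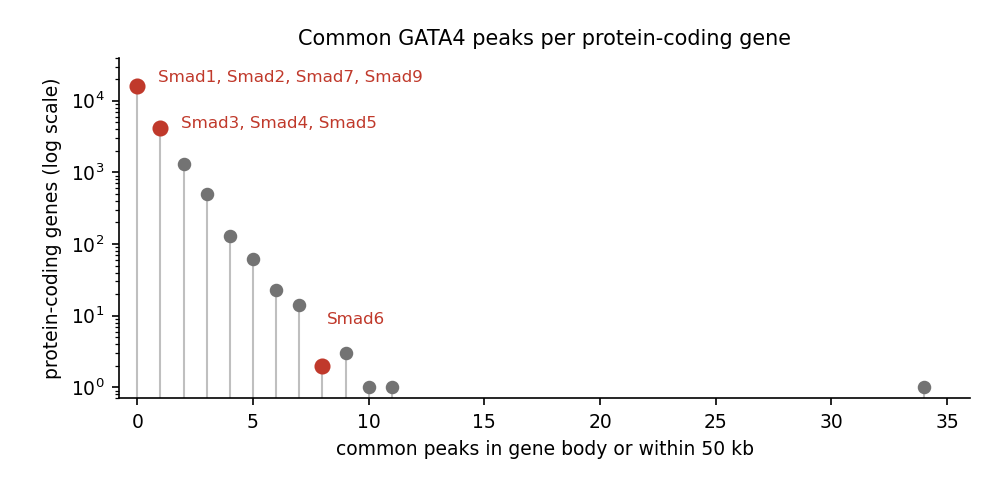
Common peaks per protein-coding gene. The x axis is the number of common peaks in the gene body or within 50 kb and the y axis, on a log scale, the number of genes with that count. Red points hold the named Smad genes, and Smad6 shares its count of 8 with 1 other gene. The gene with 34 peaks is Gm20388, annotated over 4434.9 kb.

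WGATAR is frequent in the genome, and the Smad genes were not rich in it. The 21 chromosomes held 2.64 matches per kb of sequence, whereas the Smad genes with their flanks held 1.49 (Smad6) to 2.25 (Smad4) per kb. Of the 252 matches at Smad6, 10 (3.97%) lay within its common OS. The share was 0.309% at Smad3, 0.811% at Smad4 and 0.389% at Smad5, and 0.0849% of matches over the whole genome lay in a common OS. Smad6 had the lowest density of the motif in the family and the highest share of its matches under OS. That share rests on the number of OS, which the choice of the members had used.

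All 11 OS at the Smad genes held WGATAR (100%, Wilson 95% interval 74.1 to 100), against 82.9% of all 4409 common OS. In control windows, as wide as each OS and 5000 bp to its right, 1 of 11 held it, against 31.9% over all common OS. The control window of OS 2128 lay partly within OS 314, and it held no match. Of the 11, 3 had 2 or more matches (27.3%), against 34.7% of all common OS. The match nearest to the midpoint lay 0 to 45 bp from it, with a median of 17 bp, and the median was 18 bp over the 3655 common OS with a match. The intervals cover counting error only, and the share over all common OS lay within the interval of the Smad OS.

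**Figure D5:**
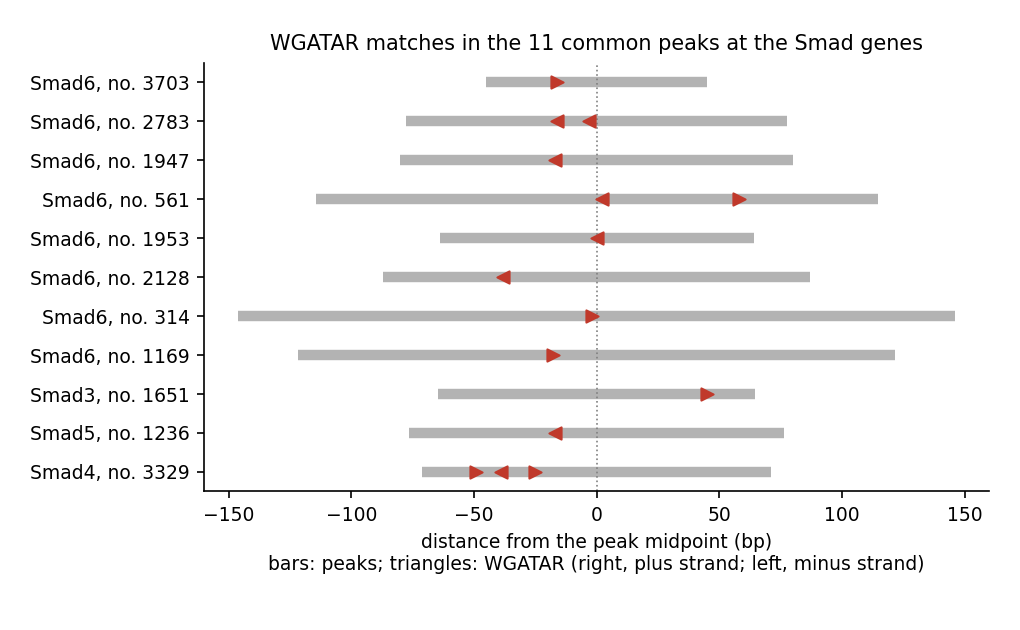
Positions of WGATAR in the Smad OS. Grey bars are the 11 common peaks aligned at their midpoints, the x axis is the distance in bp along the plus strand, and triangles mark the matches, pointing right on the plus strand and left on the minus strand. Every peak has a match within 45 bp of its midpoint, and the Smad4 peak has 3.

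The spelling of the motif at Smad6 was mostly TGATAA, which reads TTATCA on the other strand. It made up 8 of the 10 matches in the Smad6 OS, and the other 2 were AGATAA. Over all common OS, 26.8% of the 5734 matches were TGATAA and 44.6% AGATAA, with AGATAG (17.5%) and TGATAG (11%) making up the rest. Neither spelling that ends in G occurred in any of the 11 OS. Counted by OS, TGATAA was in 6 of the 8 Smad6 OS (75.0%, Wilson 95% interval 40.9 to 92.9) and in 30.6% of all common OS. The exceptions were OS 1953 within 1110036E04Rik and OS 3703 in intron 3. This feature was singled out after its counts were seen, and no test was made of it.

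The base composition of the Smad6 OS was varied. Their GC content ran from 44.4% to 67.5% with a median of 59.5%, and 6 of the 8 lay above the median of 49.4% over all common OS. OS 314 stood out with 24 CpG dinucleotides in 292 bp and a GC content of 67.5%. Its ratio of observed to expected CpG was 0.723, and 1.97% of all common OS had as many CpG. OS 1169 (66.7% GC, 9 CpG) and OS 1947 in intron 1 (66.2% GC, 8 CpG) were also rich in GC, whereas OS 2128, between OS 1953 and OS 314, had 1 CpG at 59.2% GC. The lowest GC content of the 11 was 41.9%, at the Smad3 OS. Over these 11 OS the widths ran from 90 to 292 bp with a median of 155 bp, against 190 bp over all common OS. The median width of the 8 Smad6 OS was 167 bp.

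Short motifs of other factors were sought in the 200 bp around each midpoint, on both strands. CAGAC, a core that Smad proteins themselves can bind, occurred in 7 of the 11 windows (63.6%, Wilson 95% interval 35.4 to 84.8), 6 of them at Smad6, with 16 matches in all. It occurred in 39.9% of the windows of all common OS, which lies within that interval. The windows of OS 561 and OS 1947 held 4 CAGAC matches each. The 160 bp of OS 1947 itself held no CAGAC on either strand. Its matches thus lay wholly or partly outside the OS, in the short flanks that complete the window of 200 bp. GGCGCC, another sequence bound by Smad proteins, was in none of the 11 windows and in 3.45% of all. GGAAG, the core of ETS factor sites, was in 6 of 11 windows and in 67.0% of all. TGTTTAC, a forkhead (FOXA) sequence, was in 1 window, that of OS 561, and in 6.17% of all. AGTCCA, part of the HNF4 site, was in 1 (14.0% of all) and TTGCNNAA, a C/EBP sequence, in 2 (12.7% of all). The E-box CANNTG, bound by basic helix-loop-helix proteins, was in 6 of 11 windows and in 61.8% of all. CTG followed after 7 to 9 bases by WGATAR, an arrangement known from GATA sites of blood cell genes, was in 1 window, OS 561, against 11% of all. The last of these contains WGATAR by construction, CANNTG can share letters with a neighbouring WGATAR, and a match is only a match of letters.

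WGATAR was also sought in promoters of 300 bp from RefSeq (GRCm38.p6), for which 5 of the 8 Smad genes were matched by symbol with 7 promoters. A match was found in 1 of the 7, at a Smad5 start, against 29.8% of all promoters. Smad5 had several of the 7, some of them overlapping in sequence, and by gene a match was found in 1 of 5. The Smad6 promoter had none, and on mm9 the common OS nearest to the Smad6 TSS was OS 1947 in intron 1.

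The other genes of the pathway, in lists chosen with earlier results of these data known, were described with the same rule. Of 65 ligands, receptors, regulators, cofactors and targets, 25 (38.5%) had at least 1 common OS, against 27.7% of protein-coding genes. A MACS2 peak was at 31 of the 65, against 33.9% of protein-coding genes. Among ligands it was 4 of 15, with 4 common OS at Bmp10, 3 at Bmp6, the ligand of hepcidin control, 2 at Gdf15 and 1 at Bmp2. Among receptors and coreceptors it was 9 of 15, the largest share of the 5 lists. A pair of neighbouring receptor genes among the 9 counted the same single OS, since the reaches of genes can overlap. Eng (endoglin), an endothelial coreceptor, had 7 common OS over a body of 36.1 kb, or 5.14 per 100 kb with its flanks, which was above the density at Smad6. Tgfbr3 (betaglycan) had 4, Hfe2 (hemojuvelin, the BMP coreceptor of hepatocytes) 3 and the type I receptor gene Acvr1 2. Among extracellular and membrane regulators it was 2 of 10, with 1 each at Bmper and Fst (follistatin).

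Among Smad cofactors, corepressors and ubiquitin ligases it was 6 of 17. The ubiquitin ligase genes Nedd4l, Smurf1 and Smurf2, whose products mark receptors and Smads for breakdown, had 3, 2 and 2 common OS, and the corepressor gene Ski had 1. Among targets it was 4 of 8, with 3 common OS each at Atoh8 and Id3 and 1 at Id2. The hepcidin gene Hamp and its copy Hamp2, in the same list, had 0 common and 0 MACS2 peaks; they were named after their values were seen. The median count was 1 for the receptors, 0.5 for the targets and 0 for the other lists and for all protein-coding genes. Within 50 kb, the measure on which it had been chosen, Smad6 had more common OS (8) than any of these 65 genes. In the gene body alone Smad6 and Bmp6 had 3 each.

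Since whole liver holds several cell types, marker genes, chosen with earlier results of these data known, were counted in the same way, beside 27.7% with a common OS and a median of 0 over all protein-coding genes. All 10 liver endothelial markers had a common OS, with a median of 2.5, among them Gpr182 with 7 and Stab2, Tek and Oit3 with 5 each. Of the hepatocyte markers 6 of 10 had one, with a median of 1, among them Alb and Cps1 with 3 each. Of the Kupffer cell markers it was 1 of 5, Cd68, and of the cholangiocyte markers 0 of 4. In the study, hepatocyte-specific Gata4 excision almost wholly removed GATA4 from the sites then examined. Its authors concluded that occupancy at those sites was in hepatocytes. Smad6 was not among them. Smad6 is known from both endothelial cells and hepatocytes, and the part of each cell type in its OS was not tested.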

How the data were processed

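GATA4 ChIP and input DNA from adult mouse liver were compared by the authors, and the input sample entered only through their peak calls. By the study's methods and the submitters' processing notes, uniquely placed reads on mm9 (Bowtie 0.12.7) served for peak calling by MACS2 2.0.10 and a modified SPP, thresholds were set by the irreproducible discovery rate between replicates, and SPP peaks overlapped by MACS2 peaks (bedtools 2.16.1) formed the common list. Deposited as browser tracks, the files carry a score that the authors set to 1000 for every peak, so it holds no strength, and the depth behind a peak is unknown. The lists held 4409 common, 4811 SPP and 5867 MACS2 peaks.

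Here, midpoints were assigned to genes of GENCODE M1 (22367 protein-coding genes; the study used RefGene) with a reach of 50 kb, and the reference was NCBI Build 37, the same build as mm9. All peaks ended within its chromosomes. A minimum of 1 bp counted as overlap. WGATAR was matched exactly on both strands. The Smad genes, the pathway and marker lists and the named genes were chosen with earlier results of these data known. All 8 Smad genes were named with every OS. Also named were the 5 genes closest to Smad6 in count and then in body length, and up to 4 genes of each pathway list with the most common OS. The value of 1 target gene is not reported here. With 1 pooled ChIP sample no test was possible. Shares carry Wilson intervals at 95%, which cover counting error only. Alternatives were the reach, the list, the annotation, the assignment, the motif window and the overlap. Scripts (Python 3.11.15 with pandas 2.3.3, numpy 2.4.6, pysam 0.24.0, scipy 1.17.1 and matplotlib 3.10.9; samtools 1.23.1) were tested on simulated data first.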

Additional observations from a re-analysis of the deposited data

How the results depend on the processing

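Of 55 alternatives over 8 results, 40 left the value within 1.5 times the count reported or within the interval of the share or median. The reach mattered most. With 5 kb or 10 kb in place of 50 kb, the common OS at the Smad genes fell from 11 to 4, those at Smad6 from 8 to 3, Smad genes with an OS went from 4 to 2 as Smad4 and Smad5 dropped out, and pathway genes with an OS from 25 to 15 (5 kb) and 16 (10 kb). The 5 OS lost at Smad6 were those of the upstream stretch. The share of all protein-coding genes with an OS at 5 kb or 10 kb is not given here. These falls are thus not shown to be particular to the Smad or pathway genes. The share of protein-coding genes with as many common OS as Smad6, 0.0358% as reported, became 0.769% at 5 kb, 0.934% at 10 kb and 0.0715% at 100 kb, 0.0715% with the SPP list, 0.13% by OS per kb and 0.599% by the gene body alone. With at least 50% of both peaks required to overlap, 0% of the Smad6 OS were shared with MACS2, since each MACS2 peak was more than 2 times as wide. The share over all common OS was then 19.6%. With the MACS2 list 15 peaks lay at the Smad genes, 9 of them at Smad6. All alternatives for WGATAR gave 100%, but most could not have given less once every OS held the motif. They used the same OS, a subset of them, windows that contain them or a looser motif. Only the central 100 bp and the MACS2 peaks without a common OS could have differed. These alternatives are among the 40. No paired analysis was possible because the files hold 1 pooled ChIP sample. Precision is limited by the small number of OS and by the unknown read depth.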
